A study of Rattus norvegicus with 16 samples.

Results

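The 10 cytokine and growth factor genes *Csf1*, *Csf3*, *Il6*, *Lif*, *Il15*, *Il1a*, *Il18*, *Tnf*, *Tnfsf13* and *Spp1*, whose products can be made by epithelial cells, were followed in rat thyroid cells after silencing of *Pax8*. They were chosen by symbol, by a rule that uses no measured value, although earlier results of these data were known when the list was made. Probes were assigned through the RefSeq accession printed for each spot, which gave 11 probes for the 10 genes (2 for *Csf1*, 1 for each other gene) out of 8899 genes that could be named on the arrays.

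PCCl3 is a continuous line of rat thyroid follicular cells. RNA of cells that received an siRNA against *Pax8* (siPax8) was hybridized to 2-colour Agilent arrays together with RNA of wild type cells (wt) on 8 arrays, and together with RNA of cells transfected with a scramble siRNA (siScramble) on another 8. There were 4 biological replicates per comparison, each on a pair of arrays with the dyes swapped, so that siPax8 RNA carried Cy5 on 1 array and Cy3 on the other. All cells were grown in medium with 5% donor calf serum and 6 hormones, among them 1 nM TSH and 10 nM hydrocortisone. The siRNAs were used at 10 ng/ml with a lipid transfection reagent, which the treatment notes name for both siRNAs. For the wt cells the sources differ on whether they met the transfection reagent, so that against wt the reagent, an siRNA of any sequence and the loss of *Pax8* cannot be told apart. The siPax8 cells enter both comparisons, and siScramble and wt RNA were never set on 1 array. Values are log2 ratios of siPax8 over control, a positive value meaning more RNA in siPax8 cells. A probe was called when its limma p, adjusted over all 41012 probes by Benjamini-Hochberg, was under 0.005.

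Cytokines are secreted or membrane-bound proteins that act on receptors of nearby cells, and epithelial cells release several of them when stressed, infected or wounded. *Csf1* and *Csf3* encode growth factors of macrophages and of neutrophils. *Il6* and *Lif* signal through a shared receptor subunit, the product of *Il6st*, to JAK kinases and STAT3. *Il15* supports T cells and natural killer cells, *Il1a* and *Il18* belong to the interleukin-1 family, *Tnf* and *Tnfsf13* to the TNF family, and *Spp1* encodes osteopontin, a secreted phosphoprotein that binds integrins and CD44.

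RefSeq promoter sequence (build GRCr8) was at hand for 7 of the 10 genes. The 250 bases before the annotated start of *Spp1*, *Il15* and *Tnfsf13* are shown, because these were the genes called against wt for which the table had an entry. Capitals mark letters that matched 1 of 5 short motifs searched on both strands.
Spp1, chr14:5619805-5620054, minus strand: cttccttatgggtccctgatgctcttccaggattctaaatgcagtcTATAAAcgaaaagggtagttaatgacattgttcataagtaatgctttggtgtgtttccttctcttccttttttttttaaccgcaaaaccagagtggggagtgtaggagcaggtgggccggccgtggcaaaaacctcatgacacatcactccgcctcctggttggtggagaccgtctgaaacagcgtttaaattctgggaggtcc
Il15, chr19:42544456-42544705, plus strand: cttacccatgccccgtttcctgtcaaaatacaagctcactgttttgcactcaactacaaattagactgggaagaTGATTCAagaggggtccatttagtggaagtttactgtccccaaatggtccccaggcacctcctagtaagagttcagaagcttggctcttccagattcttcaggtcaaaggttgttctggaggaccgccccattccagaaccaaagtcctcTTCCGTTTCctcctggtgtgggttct
Tnfsf13, chr10:54901816-54902065, minus strand: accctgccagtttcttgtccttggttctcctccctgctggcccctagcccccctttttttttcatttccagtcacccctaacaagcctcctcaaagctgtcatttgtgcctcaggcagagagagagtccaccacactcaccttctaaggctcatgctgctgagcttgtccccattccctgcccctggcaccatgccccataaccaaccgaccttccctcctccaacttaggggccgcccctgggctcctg

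In the *Spp1* window the capitals are a TATAAA match from base -204 to -199, counted back from the annotated start. In the *Il15* window they are an AP-1 match (TGANTCA) from -176 to -170 and, on the opposite strand, an interferon regulatory factor match (GAAANNGAA) from -26 to -18. The *Tnfsf13* window held none of the 5. Among 33469 rat promoter windows of this length, TATAAA was found in 12.9%, the AP-1 letters in 6.34% and the interferon regulatory factor letters in 8.12%. Of the 7 windows, 3 held TATAAA (*Il1a*, *Tnf* and *Spp1*), 2 the AP-1 letters (*Il1a* and *Il15*) and 1 the interferon regulatory factor letters (*Il15*). The STAT letters TTCNNNGAA, found in 7.67% of all windows, and GTCACGC, the core of a paired domain site, found in 1.74%, were in 0 of the 7. These are matches of letters, and no binding was measured here.

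Whether the cytokine RNAs were there to be measured differed between the genes. *Csf1*, *Il15*, *Tnfsf13*, *Lif* and *Spp1* were well above background in all 32 channels (16 arrays with 2 colours each). *Csf3* was well above background in 3 of 32 channels, and *Il6*, *Il1a*, *Il18* and *Tnf* in 0 of 32. At the 4 genes last named, the spot intensity was 0.845 to 1.63 times the local background. Probes for *Il6*, *Tnf* and *Spp1* are printed 10 times on each array. Of the 320 spot readings of each, 11 were well above background for *Il6*, 4 for *Tnf* and 320 for *Spp1*. No cytokine spot was saturated.

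**Figure D1:**
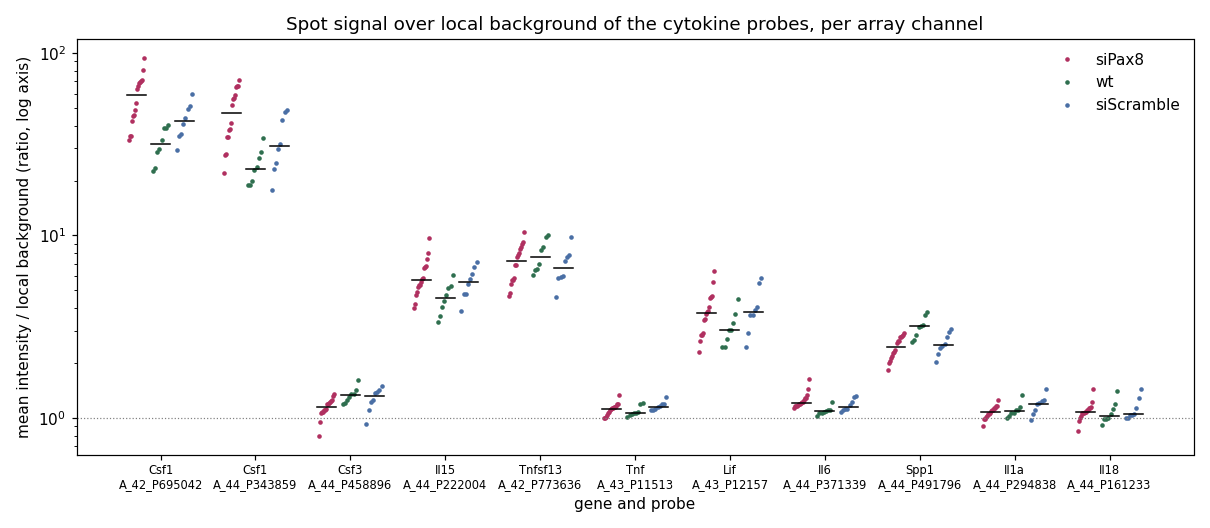
Mean spot intensity divided by local background (log axis) for each cytokine probe, with 1 point per array channel and a black bar at the median of siPax8 (16 channels), wt (8) and siScramble (8). *Csf1*, *Il15*, *Tnfsf13*, *Lif* and *Spp1* lie above the dotted line at 1 in every channel, and *Csf3*, *Tnf*, *Il6*, *Il1a* and *Il18* lie close to it.

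The targeted gene was read first. *Pax8* had log2 ratios of -0.84, -0.57, -0.59 and -0.26 against wt (mean -0.56, SD 0.24, n = 4, limma adjusted p = 0.000472). Against siScramble they were -0.58, -0.29, -0.12 and -0.01 (mean -0.25, SD 0.25, n = 4, limma adjusted p = 0.143). Its RNA was thus below wt in every replicate. Against siScramble the fall ranged from -0.58 in replicate 1 to a value near 0 in replicate 4, and it was not called. All 9 thyroid markers that could be named, *Pax8* among them, were well above background. Against wt 7 of them were lower and 1 was higher (median -0.61). Against siScramble 1 was lower (median -0.18), with 8 at an unadjusted p under 0.05. *Tg*, which encodes thyroglobulin, was called in both, with -0.96 ± 0.17 (SD, n = 4, limma adjusted p = 4.62e-06) against wt and -0.65 ± 0.12 (limma adjusted p = 0.000528) against siScramble. *Slc5a5*, which encodes the sodium iodide symporter, was lower against wt (-0.61 ± 0.07, limma adjusted p = 3.09e-06). Against siScramble it had 0.07 ± 0.09 (limma adjusted p = 0.364). *Slc26a4* was the marker called higher against wt (0.64 ± 0.06, limma adjusted p = 1.87e-06). It had -0.18 ± 0.14 against siScramble (limma adjusted p = 0.101). The part of these marker changes in the cytokine changes was not tested. Spots well above background made up 52% to 60.8% of an array in the siPax8 channel and 53.7% to 59.9% in the control channel.

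Against wt, 4 of the 10 cytokine genes were called: *Csf1* and *Il15* were higher in siPax8 cells, and *Spp1* and *Tnfsf13* were lower. In probes these were 5 of 11, 3 higher and 2 lower, while of all probes 15.3% were called, 7.04% higher and 8.23% lower. Against siScramble, *Csf1* alone was called, with both of its probes higher and no cytokine probe lower, where 2.11% of all probes were called, 1.22% higher and 0.897% lower. The log2 ratio against wt differed from that against siScramble for 1 cytokine probe, *Spp1*, which was lower in the first, and for 3.44% of all probes, 1.78% in that direction. The median log2 ratio of the 11 probes was 0 against wt and -0.01 against siScramble, and that of all probes was 0 in both. These medians include probes at background, whose ratios are pulled towards 0. Over the 5 cytokine genes that were detected, the medians were 0.10 and 0.11.

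*Csf1*, which encodes macrophage colony-stimulating factor, was the 1 gene of the 10 that was called higher in siPax8 cells than in both controls. Before normalization, its spot intensity was a median 58.6 times the background in siPax8 RNA, 31.6 times in wt RNA and 42.4 times in siScramble RNA at probe A_42_P695042. At probe A_44_P343859 these medians were 46.8, 23.2 and 30.8. Both probes thus had the highest median in siPax8 RNA and the lowest in wt RNA, although the ranges over single arrays overlapped.

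Against wt, probe A_42_P695042 gave log2 ratios of 0.74, 0.67, 0.93 and 0.77 in replicates 1 to 4, with a mean of 0.78 (SD 0.11, limma adjusted p = 2.66e-06). Probe A_44_P343859 gave 0.82, 0.68, 0.96 and 0.79, with a mean of 0.81 (SD 0.12, limma adjusted p = 2.53e-06). At each probe the 4 values were far from 0 in relation to their spread, and the means correspond to 1.71-fold and 1.76-fold the wt level. Both probes were read on the same arrays, so they are not separate replicates.

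Against siScramble, A_42_P695042 gave 0.56, 0.60, 0.45 and 0.57, with a mean of 0.54 (SD 0.07, limma adjusted p = 0.000287). A_44_P343859 gave 0.70, 0.55, 0.57 and 0.60, with a mean of 0.61 (SD 0.07, limma adjusted p = 0.000188). The 4 values of each probe were again above 0, with means at 1.46-fold and 1.52-fold the siScramble level. Of the 41012 probes, 187 and 171 had a higher log2 ratio against wt than these 2 *Csf1* probes, and 108 and 81 had a higher one against siScramble. With arrays of bulk RNA, more RNA per cell and more cells that make it cannot be told apart.

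The ratios against wt exceeded those against siScramble by 0.23 (95% interval 0.11 to 0.36, limma adjusted p = 0.0248) and 0.21 (0.08 to 0.34, limma adjusted p = 0.0496), which did not pass the threshold. The first of these passed with a dye term and the replicate block (limma adjusted p = 0.0023), and without replicate 3 they were 0.15 and 0.14. On each of the 4 slides the ratio against wt was between 0.73 and 0.83 at A_42_P695042 and between 0.71 and 0.90 at A_44_P343859, and against siScramble it was between 0.50 and 0.60 and between 0.52 and 0.71. The call against siScramble was lost when the scanner software's processed intensities were used, with log2 ratios of 0.58 and 0.65 and adjusted p of 0.0108 and 0.00899 by limma.

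The 3 named genes whose log2 ratios over the 8 replicate values lay nearest to *Csf1*, by root mean square difference among 5179 genes well above background, were *Tnnt2* (0.09), *Plpp3* (0.09) and *Ckmt1* (0.12). *Tnnt2*, which encodes cardiac troponin T, had a mean log2 ratio of 0.79 against wt and 0.56 against siScramble. *Plpp3*, a lipid phosphate phosphatase, had 0.80 and 0.50. *Ckmt1*, a mitochondrial creatine kinase, had 0.70 and 0.51.

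*Csf3*, which encodes granulocyte colony-stimulating factor, was close to background. It was well above background in 1 of 16 siPax8 channels, 2 of 8 wt channels and 0 of 8 siScramble channels, all 3 of them in replicate 1 against wt. The log2 ratios against wt were -0.07, -0.18, -0.12 and -0.18 (mean -0.14, SD 0.05, limma adjusted p = 0.01), which did not pass the threshold. They passed it in 5 of 15 alternatives (with the replicate block, limma adjusted p = 0.00396), but most of these channels lay at background, so that neither the size nor the call can be read as a change of *Csf3* RNA. Against siScramble neither RNA was above background, and no ratio is given.

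**Figure D2:**
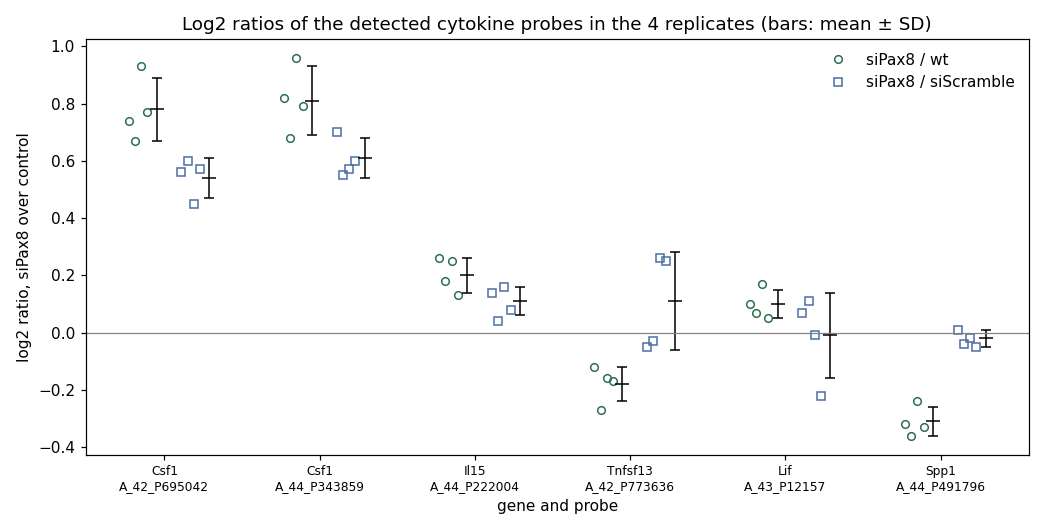
Log2 ratios of siPax8 over wt (circles) and over siScramble (squares) at the 6 probes of the 5 cytokine genes detected in every channel, with 1 symbol per replicate (mean of its dye-swapped arrays) and the mean ± SD of the 4 beside them. Both *Csf1* probes lie above 0 in both comparisons, and *Spp1* lies below 0 against wt and around 0 against siScramble.

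*Lif*, a cytokine of the IL-6 family, was detected in every channel and was called in neither comparison. Its median signal was 3.74 times the background in siPax8 RNA, 3.02 times in wt RNA and 3.80 times in siScramble RNA. Log2 ratios against wt were 0.10, 0.07, 0.17 and 0.05 (mean 0.10, SD 0.05, limma adjusted p = 0.0447). Against siScramble they were 0.07, 0.11, -0.01 and -0.22 (mean -0.01, SD 0.15, limma adjusted p = 0.95). The values lay on both sides of 0 in the second comparison, and the 95% interval of the mean there was -0.14 to 0.12. *Il6* itself was not well above background in any channel, with a median signal of 1.21 times the background in siPax8 RNA, 1.08 times in wt RNA and 1.15 times in siScramble RNA, so no ratio is given.

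*Il15* was slightly higher in siPax8 than in wt cells. Its median signal was 5.68 times the background in siPax8 RNA, 4.53 times in wt RNA and 5.58 times in siScramble RNA. Log2 ratios against wt were 0.26, 0.18, 0.25 and 0.13 (mean 0.20, SD 0.06, limma adjusted p = 0.00144), or 1.15-fold. Against siScramble they were 0.14, 0.04, 0.16 and 0.08 (mean 0.11, SD 0.05, limma adjusted p = 0.078). All 8 values were above 0, the 2 sets of 4 overlapped, and their means differed by 0.10 (95% interval 0 to 0.19, limma adjusted p = 0.216). The call against wt held with siPax8 in Cy5 (log2 ratio 0.31, limma adjusted p = 2.07e-05) and not with siPax8 in Cy3 (0.10, limma adjusted p = 0.23). It was also lost by limma without replicate 2 or 3 (adjusted p = 0.00774 and 0.0141) and with the scanner's processed intensities (0.35, limma adjusted p = 0.0132).

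*Il1a* and *Il18*, whose products are interleukin-1 family cytokines, were not well above background in any channel. The median signal of *Il1a* was 1.08 times the background in siPax8 and in wt RNA and 1.20 times in siScramble RNA. That of *Il18* was 1.08 times in siPax8 RNA, 1.02 times in wt RNA and 1.04 times in siScramble RNA. *Tnf* lay at 1.12, 1.06 and 1.15 times. A level of these RNAs, and a change in it, was not detectable with these arrays.

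*Tnfsf13*, which encodes APRIL, a ligand of receptors on B lineage cells, was slightly lower in siPax8 than in wt cells. Its median signal was 7.29 times the background in siPax8 RNA, 7.65 times in wt RNA and 6.61 times in siScramble RNA. Log2 ratios against wt were -0.12, -0.27, -0.16 and -0.17 (mean -0.18, SD 0.06, limma adjusted p = 0.00329), which is 88.3% of the wt level. Against siScramble they were -0.05, -0.03, 0.26 and 0.25 (mean 0.11, SD 0.17, limma adjusted p = 0.4). The 4 values against wt were all below 0, whereas those against siScramble fell into 2 near 0 and 2 near 0.25. The difference between the comparisons was -0.29 (95% interval -0.45 to -0.13, limma adjusted p = 0.0311) and did not pass the threshold. It passed with a dye term and the replicate block (limma adjusted p = 0.00263) and with the slide as a block (limma adjusted p = 0.00488). The slide block does not pair the dye-swapped arrays of a replicate, which lay on different slides, so it counts them as separate samples. The call against wt was lost in 8 of 16 alternative settings, among them without replicate 2, 3 or 4 (limma adjusted p = 0.0193, 0.0191 and 0.0169).

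*Spp1* was lower in siPax8 than in wt cells and close to its siScramble level. Its median signal was 2.46 times the background in siPax8 RNA, 3.18 times in wt RNA and 2.51 times in siScramble RNA. Log2 ratios against wt were -0.32, -0.36, -0.24 and -0.33 (mean -0.31, SD 0.05, limma adjusted p = 9.89e-05), which is 80.4% of the wt level. Against siScramble they were 0.01, -0.04, -0.02 and -0.05 (mean -0.02, SD 0.03, limma adjusted p = 0.719). The 4 values of each comparison did not overlap, and the difference of -0.29 (95% interval -0.37 to -0.21, limma adjusted p = 0.000832) passed the threshold. On single slides the ratio against wt lay between -0.34 and -0.30. The ratio against wt was -0.75 with the scanner's processed intensities and -0.45 without background correction, and it was called in all 16 alternative settings. The difference was no longer called without replicate 1, 2, 3 or 4 (limma adjusted p = 0.00552, 0.0123, 0.00575 and 0.00914), at sizes of -0.28, -0.28, -0.32 and -0.29, and with 3 replicates the calls over all probes fell from 1409 to between 368 and 1063.

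**Figure D3:**
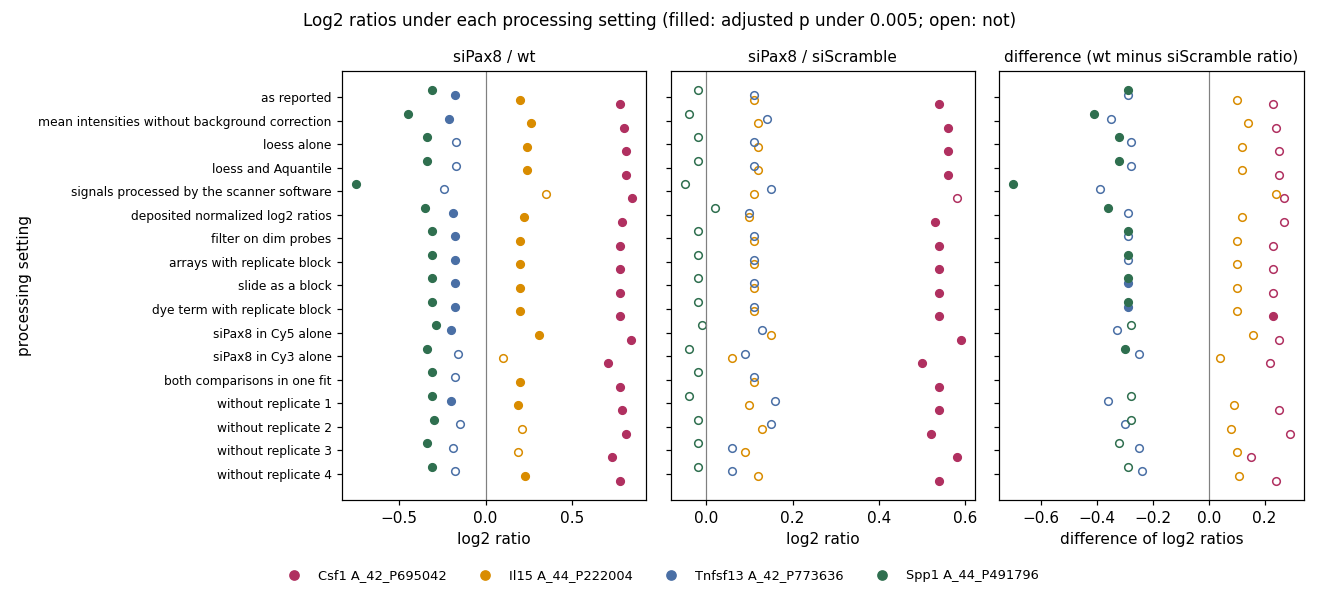
Log2 ratios of *Csf1* (probe A_42_P695042), *Il15*, *Tnfsf13* and *Spp1* against wt and against siScramble, and the difference of the 2 ratios, as reported and under each alternative setting. Filled symbols mark an adjusted p under 0.005. In the setting with both comparisons in one fit, the difference was not computed. *Csf1* and *Spp1* are filled against wt in every setting, and *Spp1* reaches -0.75 with the scanner's processed signals.

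The receptors of these cytokines and other genes of their pathways were measured on the same arrays. A list gene was counted when every probe of it was called. The counts stand beside the 15.3% of all probes called against wt and the 2.11% called against siScramble, which include dim probes. Among probes well above background in at least 6 of 8 arrays for either RNA, 6148 of 23082 were called against wt and 762 of 22519 against siScramble. These shares are higher than those of all probes. Of 20 listed receptor genes, 12 could be named and 8 of those were detected. Against wt 1 was higher and 2 were lower, and against siScramble limma called 0 of the 12, with 2 at an unadjusted p under 0.05. *Tnfrsf1b*, a TNF receptor, had log2 ratios of 0.59 ± 0.13 (SD, n = 4, limma adjusted p = 2.6e-05) against wt and 0.25 ± 0.19 (limma adjusted p = 0.0711) against siScramble. *Il2rb*, a receptor chain shared by IL-2 and IL-15, had -0.63 ± 0.05 (limma adjusted p = 1.44e-06) against wt and 0.09 ± 0.11 (limma adjusted p = 0.351) against siScramble. *Lifr*, the receptor of LIF, had -0.19 ± 0.07 (limma adjusted p = 0.003) and -0.09 ± 0.03 (limma adjusted p = 0.0729). *Csf1r*, the receptor gene for the *Csf1* product, was well above background in 14 of 32 channels and had a log2 ratio of 0.01 ± 0.09 against wt and 0.03 ± 0.06 against siScramble (limma adjusted p = 0.938 and 0.717).

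Of 10 listed inhibitors and processing enzymes of cytokines, 9 could be named, and 1 was higher and 2 lower against wt. Against siScramble limma called 0, with 2 at an unadjusted p under 0.05. *Casp4*, an inflammatory caspase, had 0.62 ± 0.09 against wt (limma adjusted p = 5.01e-06) and 0.21 ± 0.10 against siScramble (limma adjusted p = 0.0212). *Socs1*, an inhibitor of JAK kinases, had -0.32 ± 0.06 (limma adjusted p = 0.000101) and -0.16 ± 0.15 (limma adjusted p = 0.145). *Furin*, a protease that cleaves many proproteins, had -0.27 ± 0.08 (limma adjusted p = 0.000487) and -0.06 ± 0.09 (limma adjusted p = 0.466).

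Of 29 other cytokine genes, 23 could be named, and 13 of these were well above background in no channel, among them *Ifng*, *Il10* and *Osm*. Against wt 3 were called higher and 1 lower, but 2 of the 3, *Ifnb1* and *Ltb*, were well above background in 1 of 8 wt channels each, and against siScramble limma called 0, with 3 at an unadjusted p under 0.05. *Il24*, of the IL-10 family, had 0.59 ± 0.06 (limma adjusted p = 3.16e-06) against wt and 0.28 ± 0.15 (limma adjusted p = 0.0244) against siScramble. *Ifnb1*, which encodes interferon beta, had 0.39 ± 0.05 (limma adjusted p = 2.32e-05) and -0.02 ± 0.11 (limma adjusted p = 0.913), and was well above background in 16 of 16 siPax8 channels, 8 of 8 siScramble channels and 1 of 8 wt channels, so that the size against wt is not well determined. *Mif*, a cytokine of many cell types, had -0.24 ± 0.05 (limma adjusted p = 0.000372) and -0.18 ± 0.07 (limma adjusted p = 0.0191).

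Of 10 genes of the JAK and STAT3 pathway and its response, 2 were higher and 1 was lower against wt, and 3 were higher against siScramble, where 6 had an unadjusted p under 0.05. *Jak2*, the kinase, had 0.64 ± 0.05 (limma adjusted p = 1.3e-06) and 0.47 ± 0.09 (limma adjusted p = 0.000787). *Cebpd*, a transcription factor gene, had 0.27 ± 0.08 (limma adjusted p = 0.000479) and 0.29 ± 0.07 (limma adjusted p = 0.00275). These 2 genes were called higher in both comparisons. *Stat3* was not counted, because its 2 probes differed against wt. They had 0.23 (limma adjusted p = 0.000463) and 0.04 (limma adjusted p = 0.562). Neither of its probes was called against siScramble. *Hp*, which encodes haptoglobin, was the gene called lower against wt, with -0.84 ± 0.10 (limma adjusted p = 1.14e-06), and had -0.11 ± 0.05 against siScramble (limma adjusted p = 0.0656). *Lbp*, which encodes a lipopolysaccharide-binding protein, was called higher against siScramble, with 0.21 ± 0.01 (limma adjusted p = 0.00347), and had -0.26 ± 0.20 against wt (limma adjusted p = 0.0164). The list medians were 0.07 and 0.08.

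Genes of the interferon response were higher in siPax8 cells than in wt cells, and for 6 of them the log2 ratio against wt exceeded that against siScramble by limma. Of 13 listed genes 12 could be named, of which 10 were higher at every probe against wt and 1 against siScramble, with medians of 1.48 and 0.31. *Ifit3* and *Mx1*, both among the 10, were well above background in 0 of 8 wt channels, so the size of their ratios against wt is not well determined. Against siScramble the log2 ratios of all 12 genes, as means of their probes, were above 0 (0.06 to 0.74), and 10 had an unadjusted p under 0.05. The 2 probes of *Rsad2* differed there, at 1.04 (limma adjusted p = 0.000861) and 0.19 (limma adjusted p = 0.0794). Only the first passed the threshold, so the gene was not counted. *Irf7*, a transcription factor of this response, had 2.36 ± 0.09 (limma adjusted p = 7.42e-09) against wt and 0.74 ± 0.12 (limma adjusted p = 0.000334) against siScramble. The signals over background of the 12 genes summed to 480 to 1270 in siPax8 channels, 421 to 954 in siScramble channels and 126 to 198 in wt channels, so both transfected RNAs lay above wt. Its part in the changes of *Csf1*, *Il15*, *Tnfsf13* and *Spp1* against wt was not tested.

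Some markers of other cell types were detected. Of 17 leukocyte markers 12 could be named, and 5 were detected. *Cd3d*, *Cd14*, *Cd68* and *Laptm5* were well above background in 32 of 32 channels and *Tyrobp* in 27. Of these, *Cd68* was called higher against wt (0.30 ± 0.12, limma adjusted p = 0.000797), and none was called against siScramble. The signals over background of the 12 summed to 24.7 to 38.0 in siPax8 channels, 23.8 to 31.1 in wt channels and 25.6 to 35.9 in siScramble channels, and *Aif1*, *Cd8a* and *Itgam* were above background in none. Of 6 named fibroblast markers 1, *Col1a2*, was detected, and the sums were 6.18 to 8.31, 6.52 to 7.75 and 6.70 to 8.19 in the same order. The 2 named endothelial markers, *Kdr* and *Pecam1*, were not detected, with sums of 1.89 to 2.54, 2.07 to 2.63 and 2.12 to 2.64.

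**Figure D4:**
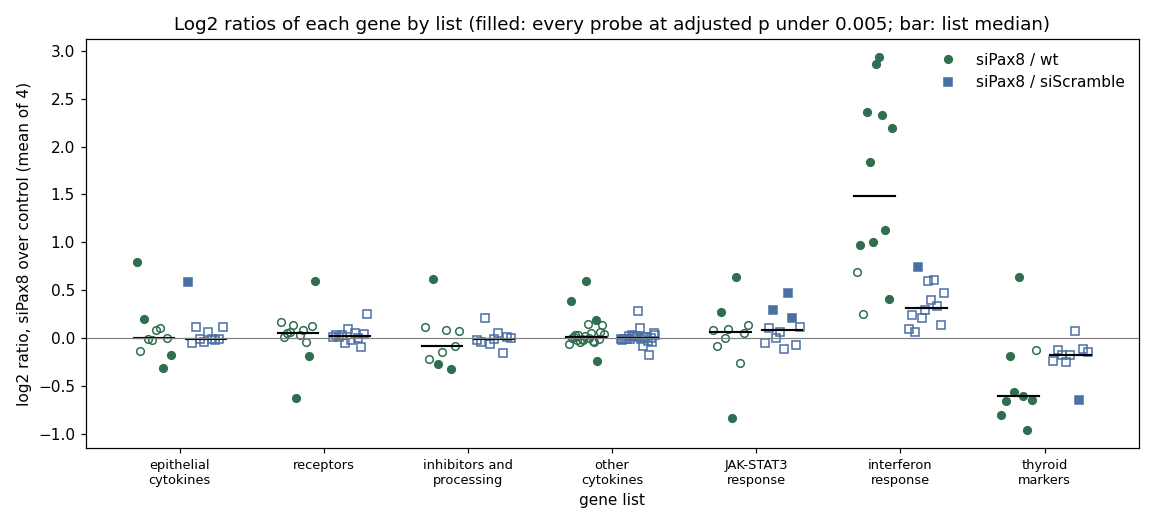
Mean log2 ratio of each named gene by list, over wt (circles) and over siScramble (squares), with filled symbols for genes called with every probe and a bar at the list's median. Interferon response genes lie highest against wt, with a median of 1.48 that includes genes not well above background in wt RNA. *Csf1* is the 1 epithelial cytokine with filled symbols in both comparisons.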

How the data were processed

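RNA of siPax8, wt and siScramble PCCl3 cells had been hybridized to 16 Agilent arrays of 2 colours, 8 per comparison. The deposited scanner files hold mean spot intensities and local background intensities of Cy3 and Cy5, read by Feature Extraction 10.1.1.1 per the file headers. A deposited table of normalized log2 ratios correlated with the values here at -0.999 to -0.992, so that it holds control over siPax8. It was used with the sign turned, as an alternative only, and its column medians were between -0.000736 and 0.00828.

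Intensities were background corrected with normexp and an offset of 50, which pulls the ratios of dim probes towards 0. They were normalized by loess within arrays, with weight 0 for control and outlier spots, and by quantiles between arrays, in limma 3.58.1 under R 4.3.3. Outlier spots (112 to 215 per array) were left out. Spots of a probe and the dye-swapped arrays of a replicate were averaged to 4 values for each probe in a comparison, to which lmFit and eBayes were applied. No cytokine probe lost a value. Adjusted p (Benjamini-Hochberg) cover 41012 probes, of which 10768 had a gene name through the GRCr8 RefSeq accessions. The difference between the comparisons was fitted to the 8 averaged values as separate groups. The number of arrays limits the precision.

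Replicate numbers were checked by correlating deviations from the replicate mean. Between the dyes of 1 number r was 0.119 to 0.47 against wt and 0.332 to 0.58 against siScramble, each above 0.1, so arrays of a number were taken as pairs, although replicate 2 against wt correlated better with another number (0.203 against 0.119). Between the comparisons r was 0.395, 0.175, 0.0444 and 0.566, not above 0.1 for every number (replicate 3 reached 0.408 with another), so numbers were not paired there. The labels call the replicates biological and do not say whether they were separate cultures, so that p measure the spread between these samples. The 4 slides each held 2 arrays of each comparison.

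On simulated data for the comparison with wt (41012 probes, 200 of them changed), 95.5% of changes of 1 on the log2 scale, 65.7% of those of 0.5 and 0% of those of 0.2 were called, with 0 false calls. The simulated data held far fewer changed probes than the arrays, which makes the adjustment stricter. The cytokines and all gene lists were chosen with earlier results of these data known. All 10 cytokines are described. From other lists, genes called with every probe in both comparisons in 1 direction are named, or else up to 3 with the smallest adjusted p. *Slc5a5*, *Slc26a4*, *Hp*, *Lbp*, *Ltb*, *Csf1r*, *Stat3*, *Rsad2*, *Ifit3*, *Mx1*, *Cd3d*, *Cd14*, *Cd68*, *Laptm5*, *Tyrobp*, *Col1a2* and the undetected genes were added after their values were seen. The alternatives tried are in the closing section.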

Additional observations from a re-analysis of the deposited data

Results flagged for a closer look

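The log2 ratio of *Spp1* differed between the comparisons: it was lower against wt than against siScramble by -0.29 on the log2 scale (95% interval -0.37 to -0.21, n = 8, limma adjusted p = 0.000832), with 4 of 4 values below 0 against wt and 3 of 4 against siScramble. Both comparisons use siPax8 cells, so that this difference is also an indirect measure of siScramble against wt RNA, which were not on the same array. The interval rests on spots at 1.83 to 3.81 times the local background. None of 24 sets of 4 replicate values (11 cytokine probes and *Pax8* in each comparison) held a value far from the others by Dixon's test.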

How the results depend on the processing

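*Csf1* and *Spp1* against wt kept their direction and their call in all 16 alternatives, with log2 ratios of 0.71 to 0.92 for *Csf1* and -0.75 to -0.29 for *Spp1*. With the scanner's processed signals, 3 cytokine probes were called against wt in place of 5, and 0 in place of 2 against siScramble, where limma gave 4 of 11 cytokine probes an unadjusted p under 0.05 and an adjusted p no lower than 0.00899. With siPax8 in Cy3 alone, 3 were called against wt. For the difference between the comparisons (1 probe), 4 passed an adjusted p of 0.05. With the slide as a block, which counts the dye-swapped arrays of a replicate as separate samples, 2 were called (*Spp1* and *Tnfsf13*). With a dye term and the replicate block, 3 were called (these and *Csf1* at A_42_P695042). With siPax8 in Cy5 alone, 0 were called (5 at an unadjusted p under 0.05, lowest limma adjusted p = 0.00664). With the replicate block in place of averaged arrays, 6 probes were called against wt and 2 against siScramble. For the difference, the arrays stayed averaged and the replicate number entered as a block, although numbers were not paired between the comparisons in the main fit. There 1 probe was called. Of all these calls, *Csf3* against wt was the 1 that changed. Leaving out each replicate in turn gave 3 to 6 probes against wt, 2 to 2 against siScramble and 0 to 0 for the difference, with 4 or 5 at an unadjusted p under 0.05. The sign turned for values near 0 against siScramble: *Lif* was 0.01 with loess alone, 0.01 with loess and Aquantile, 0.05 with siPax8 in Cy3 alone and -0.05 to 0.06 with each replicate left out in turn (above 0 without replicate 4), and *Spp1* was 0.02 in the deposited table. *Il15* against wt was no longer called in 4 of 16 alternatives and *Tnfsf13* in 8. Over all probes, 6260 were called against wt and 867 against siScramble, and 1757 and 29 with the scanner's processed signals. Loess alone and Aquantile give equal ratios by construction. The causes of these shifts were not tested. *Il6*, *Il1a*, *Il18* and *Tnf* were not well above background in any channel, which limits what these arrays can say of them.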
